A study of Homo sapiens with 2 samples.

Results

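Selenoproteins carry selenocysteine, the selenium analogue of cysteine, and 10 human genes that encode them were followed in HCT-116 cells, an established colorectal carcinoma line. They are SEPP1, GPX1, GPX2, GPX3, GPX4, TXNRD1, TXNRD2, SEPW1, SELK and SELT, taken by symbol from a deposited table of 26257 gene symbols, in which all 10 were found. The genes were selected on their measured FPKM in the comparison described here, around the low SEPP1 value, so their levels and ratios are a description and support nothing. The table holds 1 library of cells given lysophosphatidic acid (LPA, a signalling phospholipid) at 10 µM for 24 h after serum starvation, and 1 library of control cells without LPA. Both were grown in DMEM with serum and antibiotics. Whether the control cells were serum starved is not given in the sources used here. With 1 library per group no difference has a replicate check, and no p-value is given. In bulk RNA, fewer cells with a transcript and less of it per cell cannot be told apart.

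Selenocysteine is inserted at a UGA codon that would otherwise end translation, read through with the help of a stem-loop in the 3′ untranslated region and a dedicated tRNA, elongation factor and binding protein. Most selenoproteins are oxidoreductases whose selenocysteine sits in the active site. Glutathione peroxidases reduce hydroperoxides, thioredoxin reductases recharge thioredoxin, and selenoprotein P, the product of SEPP1, is a secreted carrier made mainly by liver that brings selenium to other tissues. In the intestinal epithelium GPX2 and GPX1 are the peroxidases usually described.

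The selenocysteine codons are shown because they set SEPP1 apart from the other genes. In GENCODE release 29 (GRCh38), the transcript used for SEPP1, listed there as SELENOP, carried 10 such codons and each of the other 9 genes carried 1. The GPX1 gene is annotated there as a polymorphic pseudogene. Each line gives the coding strand 5′ to 3′ as DNA, with the selenocysteine codon in capitals and up to 4 codons on each side, ending at the stop codon where that came first. For SEPP1 the codons numbered 1, 2, 7 and 10 of the 10 are printed.
SEPP1, selenocysteine codon 1: cttcaagccagcTGAtacctgtgcata
SEPP1, selenocysteine codon 2: gctcctaggagcTGAtgctgccattgt
SEPP1, selenocysteine codon 7: gccagtgccagtTGAcgctgaaagaat
SEPP1, selenocysteine codon 10: aaaaagtgagaaTGAccttcaaactaa
GPX1: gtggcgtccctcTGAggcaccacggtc
GPX2: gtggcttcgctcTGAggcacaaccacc
GPX3: gtggccagctacTGAggcctgacgggc
GPX4: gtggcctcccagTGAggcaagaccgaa
TXNRD1: caggctggctgcTGAggttaa
TXNRD2: gtgacaggctgcTGAgggtaa
SEPW1: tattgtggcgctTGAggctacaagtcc
SELT: atttgtgtttccTGAggttataggcgg
SELK: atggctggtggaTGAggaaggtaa

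In SEPP1 the first selenocysteine codon was codon 59 of 381, counted from the start codon, in exon 2 of 5 on the minus strand of chromosome 5 (42808177 to 42808179). The other 9 lay in exon 5, from codon 300 (42800966 to 42800968) to codon 378 (42800732 to 42800734), and the seventh was followed by the eighth 2 codons later, so the tga that follows in its line is also read as selenocysteine, as is the tga before the tenth. The placement was unlike that of the peroxidases, where the codon was number 49 of 203 in GPX1 (chromosome 3, 49358132 to 49358134), 40 of 190 in GPX2 (chromosome 14, 64942607 to 64942609), 73 of 226 in GPX3 (chromosome 5, 151025469 to 151025471) and 73 of 197 in GPX4 (chromosome 19, 1105403 to 1105405). At the far end of the coding sequence were TXNRD1 (codon 498 of 499, chromosome 12, 104348413 to 104348415), TXNRD2 (523 of 524, chromosome 22, 19877111 to 19877113) and SELK (92 of 94, chromosome 3, 53885831 to 53885833). SEPW1 (13 of 87, chromosome 19, 47780732 to 47780734) and SELT (49 of 195, chromosome 3, 150622392 to 150622394) had it near the start or in the first part.

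**Figure D1:**
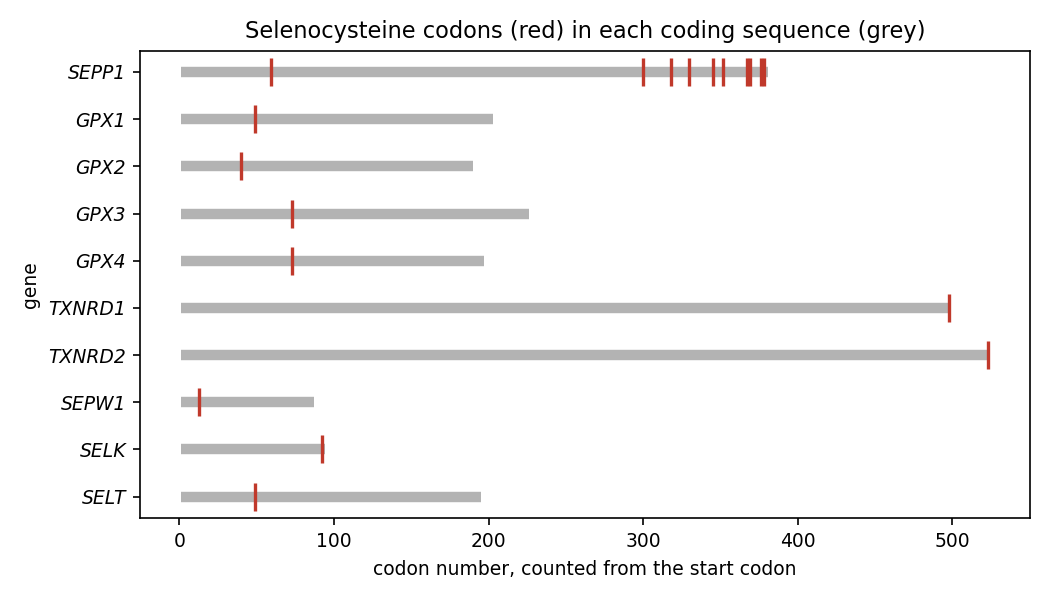
Positions of the selenocysteine codons (red ticks) along the coding sequence of each gene (grey bars), in codons from the start codon. SEPP1 has 10 ticks, 9 of them between codons 300 and 378 of 381, and every other gene has 1.

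Over the 27 bases shown, GPX1 and GPX2 were identical at 21, GPX1 and GPX4 at 19, and GPX2 and GPX3 at 15, the fewest among the 4 peroxidases. SEPW1 and SELT were identical at 15 of 27, and TXNRD1 and TXNRD2 at 16 of 21. These counts include the TGA on which the lines were aligned and, for the TXNRD pair, the shared taa stop codon. Against the other genes with 27 bases shown, SEPP1 ran as high as 14 of 27 (codon 7 with SEPW1) and as low as 4 of 27 (codon 4 with GPX4). SEPP1 was not compared with TXNRD1, TXNRD2 and SELK, whose lines are shorter. The base after TGA was G in all 9 genes with 1 codon, but over all 19 codons it was G in 10, C in 6, T in 2 and A in 1, so SEPP1 held every codon followed by another base.

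Expression is given in FPKM, fragment counts scaled for transcript length and library depth, summed over the isoforms of a gene. Summed over all isoforms, FPKM came to 709125 in the LPA library and 718801 in the control library. Depth was estimated from the lowest values, which cluster at the worth of 1 fragment, and came to about 16100000 fragments for LPA and 17500000 for control. The label of the cells was checked against 9 colon epithelial markers, of which 7 reached a mean of 1 FPKM, with EPCAM at 223 FPKM in the LPA and 220 FPKM in the control library. All 7 were above 0 in log2 ratio, with a median of 0.32, against 5864 of 11688 tested genes above 0. The keratin gene KRT18 was past 1.5-fold, at 741 FPKM in LPA and 442 FPKM in control. Of all tested genes, 1.45% were at least 1.5-fold higher in LPA. The part of these marker differences in the values of the selenoprotein genes was not tested. CDX1 and VIL1 were listed at 0 in both, which need not mean absence. Hepatocyte markers matter here because liver is the main source of SEPP1: 9 of 10 had a mean under 1 FPKM, ALB was listed at 0 in the LPA library and at 0.0834 FPKM in the control library, and the list summed to 1.98 FPKM in LPA and 1.76 FPKM in control. Of the fibroblast, immune and endothelial markers, 1 of 7, 1 of 7 and 0 of 5 reached that mean.

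**Figure D2:**
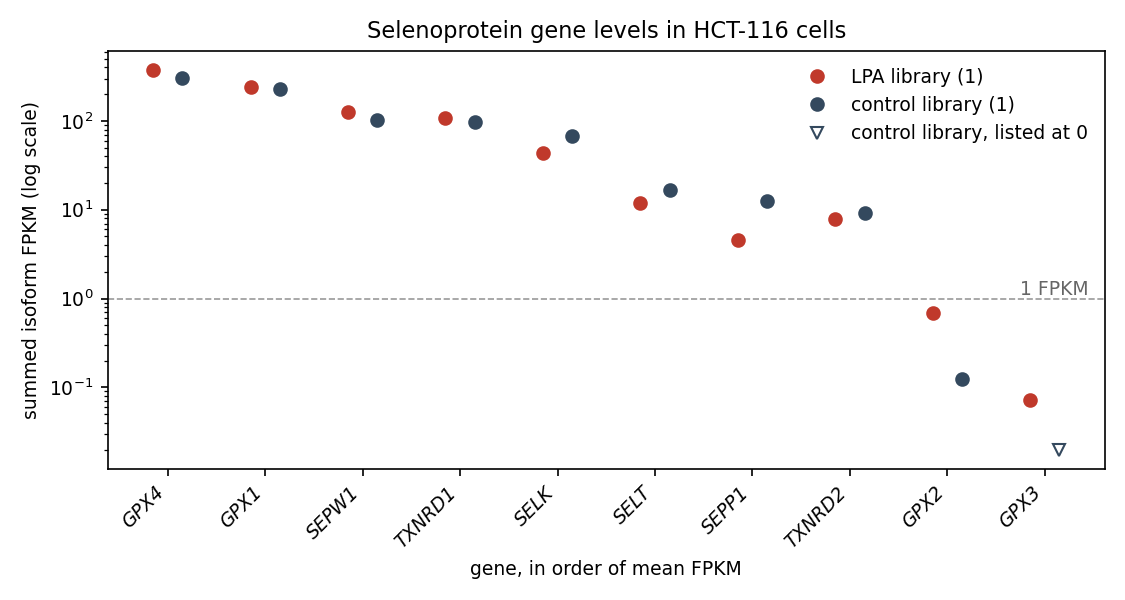
Summed isoform FPKM of the 10 genes on a log scale, in order of mean level, with the LPA library (red) left of the control library (blue). Levels run from 377 FPKM for GPX4 in the LPA library to GPX3, listed at 0 in the control library (open triangle at the foot of the axis), and the SEPP1 points are farther apart than those of any other gene above 1 FPKM.

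Among the genes that passed the filter of a mean of at least 1 FPKM, 8 of the 10, the levels spanned a wide range. GPX4 and GPX1 were the most abundant and together made up most of the summed FPKM of the group, at 41.1% and 25.9% in LPA and 36.5% and 27.4% in control. SEPW1, TXNRD1, SELK and SELT followed. SEPP1 and TXNRD2 had nearly equal means, 8.61 and 8.56 FPKM, and their order differed: SEPP1 was the lower in the LPA library and the higher in the control library, with deposited bounds that overlapped in both. The bounds of GPX4 and GPX1 also overlapped in both libraries, while those of GPX1 and SEPW1, and of SELK and SELT, were separate in both. GPX2 and GPX3 stayed under 1 FPKM.

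Among the measured genes of the group, SEPP1 differed most and was the only one past a 2-fold limit. It had 4.59 FPKM in the LPA library and 12.6 FPKM in the control library, 36.3% of the control level. Its log2 ratio, log2((LPA FPKM + 1)/(control FPKM + 1)), was -1.29, and 16 of 11688 tested genes had a lower one. The whole value came from 1 isoform (NM_005410, 2086 nt), with bounds given by the authors' software of 3.01 to 6.16 FPKM in LPA and 8.89 to 16.4 FPKM in control, which did not overlap. The other 2 SEPP1 isoforms of the table were listed at 0 in both libraries. About 154 and 461 fragments lay behind the LPA and control values, and the 95% exact binomial interval of the fold (LPA over control, 0.363) was 0.3005 to 0.437. Such intervals cover counting error only, not variation between cultures. The locus listed for SEPP1 on chromosome 5 (42756818 to 42811922, hg38) is the same interval as that listed for CCDC152. Its ends need not be those of SEPP1 itself. The kit used does not mark strand, but CCDC152 was listed at 0 FPKM in LPA and at 0.0190 FPKM in control.

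Of all tested genes, 0.205% were at least 2-fold lower and 0.351% at least 2-fold higher in LPA, and among the 8 measured genes the counts were 1 and 0. At a 1.5-fold limit 1.54% of all genes were lower and 1.45% higher, against 2 lower (SEPP1 and SELK) and 0 higher of the 8. Since SEPP1 was known to be low when the group was put together, nothing is read from these counts. The median log2 ratio was -0.07 for the 8 genes, with 4 above and 4 below 0, and 0.0009 for all tested genes. With GPX2 and GPX3 included it was 0.08.

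The TANK, SDHAF4 and NIPSNAP3A genes had the log2 ratios nearest to that of SEPP1 among 7718 genes with a mean of at least 5 FPKM and an isoform of at least 300 nt. Their ratios were -0.97, -0.97 and -0.96, each more than 0.3 above that of SEPP1. TANK had 27.8 FPKM in LPA and 55.4 FPKM in control, SDHAF4 4.26 and 9.30 FPKM, and NIPSNAP3A 3.50 and 7.75 FPKM in LPA and control. With 2 libraries, this likeness is only that of 1 ratio.

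The peroxidases with high levels were not lower in the LPA library. GPX4, which reduces lipid hydroperoxides in membranes and guards against ferroptosis, had 377 FPKM in LPA and 306 FPKM in control (log2 ratio 0.30). Its main isoform NM_002085 held 92.5% of the FPKM in LPA and 91.0% in control, with overlapping bounds of 248 to 449 FPKM and 198 to 358 FPKM. GPX1, the ubiquitous cytosolic peroxidase, had 238 FPKM in LPA and 229 FPKM in control, a fold of 1.04 with a counting interval of 0.989 to 1.09. GENCODE names 2 GPX1 pseudogenes that could share reads.

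Both of the other peroxidases were near the limit of detection. GPX2, the peroxidase of the gastrointestinal epithelium, had 0.681 FPKM in LPA and 0.125 FPKM in control, about 12 and 2 fragments, a fold of 5.46 with an interval of 1.32 to 39.5 and overlapping bounds. Its locus overlaps that of MAX and other genes. GPX3, the secreted plasma peroxidase, had 0.0725 FPKM in LPA, about 2 fragments, and was listed at 0 in control, so no fold is given. Neither passed the filter. Both levels are low against the other 2 peroxidases in either library.

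Thioredoxin reductases, which use NADPH to keep thioredoxin reduced, differed little as whole genes. TXNRD1, the cytosolic enzyme, had 108 FPKM in LPA and 96.0 FPKM in control (fold 1.13, counting interval 1.09 to 1.17). TXNRD2, the mitochondrial enzyme, had 7.91 FPKM in LPA and 9.21 FPKM in control (fold 0.859, interval 0.729 to 1.01). Its locus overlaps ARVCF, at 9.58 and 11.8 FPKM in LPA and control.

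Within TXNRD1 the split among its 7 isoforms differed between the libraries. NM_001261446 was estimated at 12.8 FPKM in LPA (bounds 2.44 to 23.2) and at 0.00326 FPKM in control (bounds 0 to 0.160), and held 11.8% of the gene's FPKM in LPA. The leading isoform was NM_182729 in LPA (50.3 FPKM, against 41.7 FPKM in control) and NM_182743 in control (45.05 FPKM, against 36.2 FPKM in LPA), both with overlapping bounds. Isoforms of this gene share most of their sequence, and how short reads were divided among them was estimated by the software. Of the 25 isoforms of the 10 genes, 15 had a mean of at least 1 FPKM, and of these only NM_001261446 and NM_005410 of SEPP1 were at least 2-fold apart with separate bounds, 1 higher and 1 lower. Over the 16999 isoforms of the table with such a mean the shares were 2.19% higher and 1.80% lower.

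**Figure D3:**
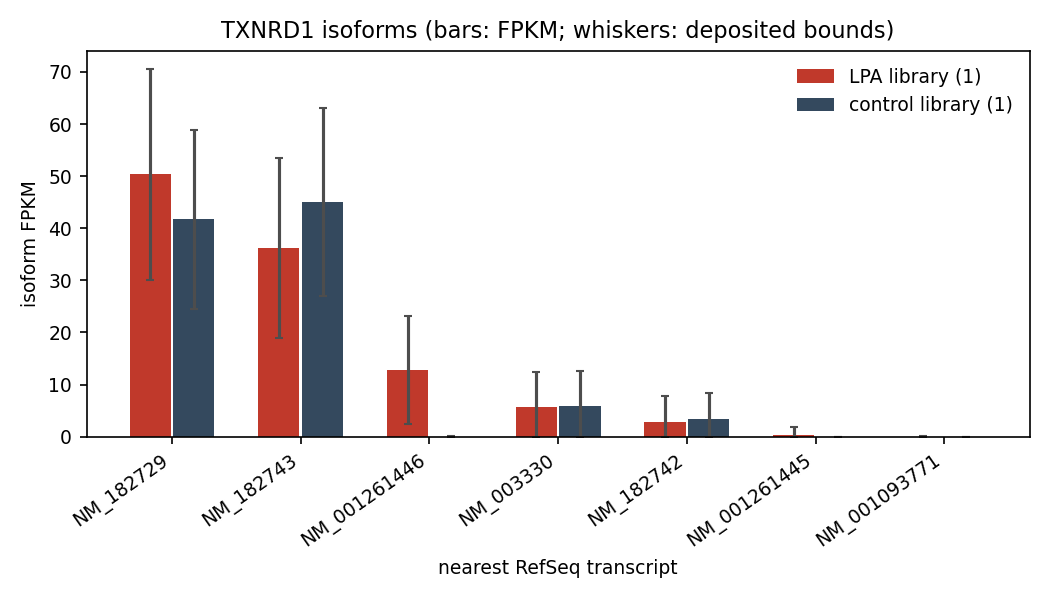
FPKM of the 7 TXNRD1 isoforms in the LPA library (red, left bar) and the control library (blue, right bar), with whiskers for the deposited bounds. NM_001261446 stands at 12.8 FPKM in LPA and 0.00326 FPKM in control, while the whiskers of the other 6 isoforms overlap.

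The small selenoproteins lay on both sides of 0. SEPW1, which encodes a small thioredoxin-like protein prominent in muscle, had 126 FPKM in LPA and 102 FPKM in control (log2 ratio 0.30). SELT, a thioredoxin-like protein of the endoplasmic reticulum, had 11.9 FPKM in LPA and 16.5 FPKM in control (log2 ratio -0.44, fold 0.723 with a counting interval of 0.655 to 0.798). SELK, a small membrane protein of the endoplasmic reticulum linked to protein degradation and palmitoylation, had 43.8 FPKM in LPA and 67.2 FPKM in control. Its log2 ratio was -0.61, just past the 1.5-fold limit, the fold was 0.652 with a counting interval of 0.587 to 0.723, and 1.28% of tested genes had a lower ratio. For all 3 genes the deposited bounds overlapped between the libraries: those of SELK were 31.2 to 56.4 FPKM in LPA and 48.4 to 86.0 FPKM in control. GENCODE names 3 pseudogenes of SELK, 2 of SELT and 1 of SEPW1.

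Of the other 15 human selenoprotein genes, 10 had a mean of at least 1 FPKM, 4 with log2 ratios above 0 and 6 below, from -0.34 to 0.13, and none was 1.5-fold apart. The lowest was SEP15, a folding factor of the endoplasmic reticulum, with 83.2 FPKM in LPA and 106 FPKM in control. MSRB1, a methionine sulfoxide reductase, had 34.4 FPKM in LPA and 40.5 FPKM in control. SELM, which resembles SEP15, had 81.7 and 74.4 FPKM, VIMP, a partner of the degradation machinery, 51.6 and 49.5 FPKM, C11orf31, the gene of selenoprotein H, 54.1 and 56.4 FPKM, and SEPHS2, which makes the selenium donor, 32.7 and 30.9 FPKM in LPA and control. Over all 25 selenoprotein genes 18 were measured and SEPP1 and SELK were the 2 past 1.5-fold, both lower. Of the 15, 2 were listed at 0 in both libraries.

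**Figure D4:**
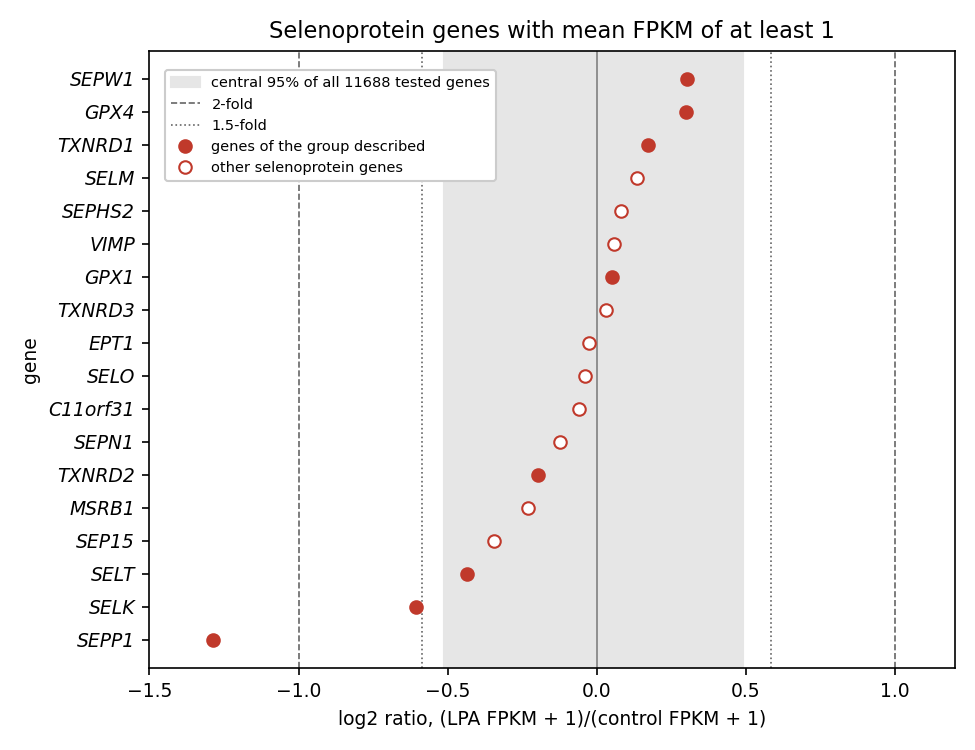
Log2 ratio of LPA over control for the 18 selenoprotein genes with a mean of at least 1 FPKM, with filled points for the genes of the group and open points for the others. The grey band, from -0.51 to 0.49, holds the central 95% of all 11688 tested genes, and only SELK and SEPP1 lie outside it.

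For the machinery that inserts selenocysteine, 16 genes were measured, 8 above and 8 below 0, with a median log2 ratio of 0.03. SARS, the seryl-tRNA synthetase that first charges the selenocysteine tRNA, was the 1 gene past 1.5-fold, with 108 FPKM in LPA and 66.8 FPKM in control (log2 ratio 0.69). SARS also charges the tRNAs of serine. RPL30, a ribosomal protein that binds the stem-loop, had 4250 FPKM in LPA and 5591 FPKM in control. NCL, nucleolin, had 383 and 322 FPKM, EIF4A3, an RNA helicase, 107 and 94.1 FPKM, XPO1, a nuclear export receptor, 32.7 and 42.2 FPKM, and CELF1, an RNA-binding protein, 23.7 and 18.1 FPKM in LPA and control.

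Other genes of this list were named after their values were seen, and all were within 1.5-fold. EEFSEC, the elongation factor, had 11.8 FPKM in LPA and 12.4 FPKM in control, SEPSECS, the last enzyme of selenocysteine synthesis, 2.09 and 2.37 FPKM, and PSTK, the kinase before it, 2.85 and 3.09 FPKM. TRNAU1AP, which associates with the tRNA, had 12.96 FPKM in LPA and 10.7 FPKM in control, SCLY, the lyase that recycles selenium, 10.9 and 8.64 FPKM, and SEPHS1, a relative of SEPHS2, 20.9 and 19.96 FPKM. SECISBP2, which binds the stem-loop, had 10.93 and 11.02 FPKM as a gene, in LPA and control. Its leading isoform NM_024077 had 9.49 FPKM in LPA and 5.43 FPKM in control, with overlapping bounds.

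Of the receptors that take up selenoprotein P, only LRP8 (ApoER2) was measured, at 6.47 FPKM in LPA and 4.92 FPKM in control. Its leading isoform NM_004631 had 4.09 FPKM in LPA and 1.76 FPKM in control, with overlapping bounds. LRP2 (megalin) and LRP1 were under 1 FPKM. Among genes that work with the thioredoxin reductases 13 were measured, 6 above and 7 below 0, with a median of -0.01. RRM2B, a ribonucleotide reductase subunit and p53 target, was the 1 past 1.5-fold, with 9.88 FPKM in LPA and 16.2 FPKM in control. Its leading isoform NM_001172478 went the other way, with 7.4999 FPKM in LPA and 6.29 FPKM in control and overlapping bounds, and the gene was within 1.5-fold with a pseudocount of 5 or relative to genes of like GC content. Thioredoxin itself, TXN, had 667 and 728 FPKM, and the peroxiredoxin genes PRDX1 1196 and 1200 FPKM, PRDX5 490 and 530 FPKM, PRDX2 306 and 261 FPKM and PRDX6 178 and 142 FPKM in LPA and control. The mitochondrial PRDX3 had 160 FPKM in LPA and 220 FPKM in control, and its leading isoform had 113 and 216 FPKM with separate bounds.

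In the list of degradation and palmitoylation partners linked to SELK and VIMP, 3 of 10 measured genes were above 0 and 7 below, with a median of -0.13 and none past 1.5-fold. ZDHHC6, the palmitoyltransferase that works with SELK, had 55.9 FPKM in LPA and 63.8 FPKM in control, DERL1 27.8 and 30.99 FPKM, VCP, the segregase ATPase, 64.4 and 62.2 FPKM, UBXN6 77.6 and 83.5 FPKM and UBXN4 15.8 and 20.8 FPKM in LPA and control. Of the peroxidase homologues without selenocysteine, GPX8 had 11.5 FPKM in LPA and 11.995 FPKM in control, and GPX5 and GPX7 were listed at 0 in both.

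Transcript GC content moved weakly with the log2 ratios, with a Pearson r of 0.20 and a Spearman rho of 0.30 across genes, which are not independent replicates. It was 38.1% for SEPP1, 42.8% for SELK and 35.3% for SELT, the 3 genes with the lowest ratios, and 58.6% for SEPW1 and 65.2% for GPX4, the pair with the highest. The other 3 measured genes did not follow that order: TXNRD1 had a GC content of 44.8% and a ratio above 0, TXNRD2 one of 62.6% and a ratio below 0, and GPX1 one of 64.2% and a ratio near 0. The 11159 tested genes with a GC value were split by GC content into 4 bins of like size. The bin with the lowest GC content, 30.2% to 42.6%, had a median log2 ratio of -0.15 and 2.80% of its genes were at least 1.5-fold lower in LPA, against 0.04 and 0.860% in the bin with the highest. The medians of the other bins were 0.01 and 0.08, from lower to higher GC content, so the highest median was not in the highest bin. Relative to genes in the same of 20 bins of GC content, the log2 ratio was -1.12 for SEPP1, -0.56 for SELK, which is then within 1.5-fold, and -0.23 for SELT. The part of GC content in these values was not tested.

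**Figure D5:**
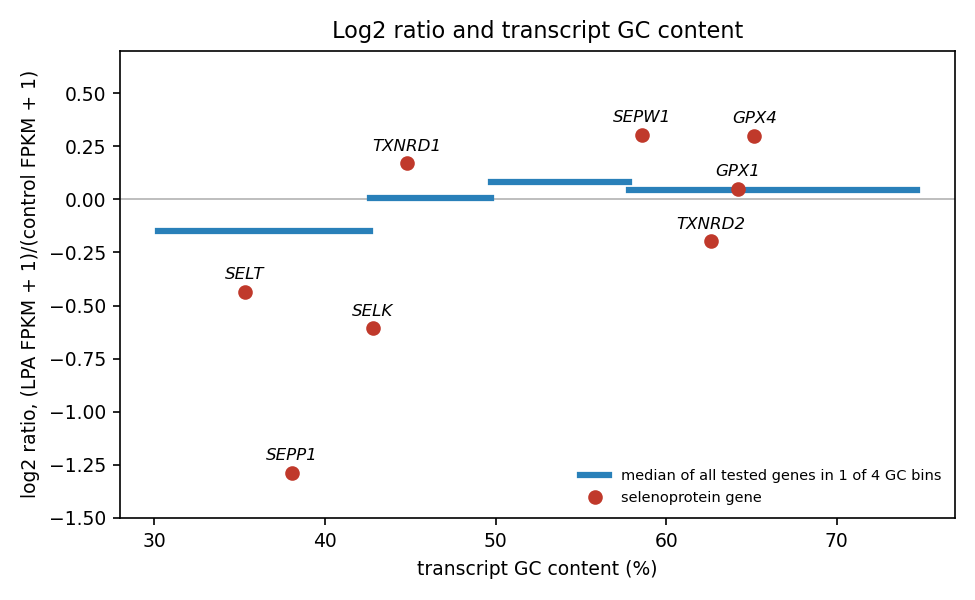
Log2 ratio of LPA over control against transcript GC content in percent for the 8 measured genes (red points), with the median of all tested genes in each of 4 bins of GC content (blue bars). SELT and SEPP1 lie in the bin with the lowest GC content, whose median is -0.15, SELK just above it, and SEPP1 lies farthest below the bars.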

How the data were processed

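Libraries were prepared from poly-A RNA (TruSeq V2, per the labels' protocols). TopHat2 2.0.12, Cufflinks, Cuffdiff 2.2.0, bcl2fastq 2.16.0.10 and the hg38 build are named in the submitters' processing notes. Their settings, the library scaling and the level of the bounds: not given in the sources used here. Per the file headers, the authors deposited FPKM for each isoform with a lower and an upper bound. Loci are printed with 1-based starts.

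FPKM were summed per symbol with Python 3.11.15 (pandas 2.3.3, scipy 1.17.1), after leaving out 16 isoforms with the status HIDATA in the LPA library, none of them of a gene named here from the lists. The 11 isoforms with the status FAIL in that library were kept in the sums, and none was of a gene of the lists. Genes with a mean of at least 1 FPKM were tested against fold limits of 2 and 1.5 with a pseudocount of 1. The worth of 1 fragment came from FPKM × length in genes with 1 isoform over 2000 nt. Ratios and depth estimates were tested on simulated counts with a smaller pseudocount and no split into isoforms. The ratios as reported, with a pseudocount of 1 on summed isoforms, were therefore not themselves tested. Selenocysteine codons came from GENCODE release 29. For these the transcript was matched by RefSeq identifier or, for SEPP1 and GPX1, had the longest coding sequence. GC content came from the same release, for the longest transcript of each gene, protein-coding where it had one. That transcript need not be the isoform with the measured FPKM. All members are named; of other lists, genes past 1.5-fold and up to 6 with the highest means. Some genes that this rule or an overlap would name are not reported here. Members and lists were chosen with earlier results of these data known.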

Additional observations from a re-analysis of the deposited data

How the results depend on the processing

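Of the 11 alternatives, several could not move a ratio: keeping HIDATA isoforms, added after seeing the data, touched no listed gene, and the filters at no limit, 5 FPKM and 300 nt left the ratio of every measured gene of the group as it was. With a pseudocount of 5, the log2 ratio of SEPP1 was -0.88, 0 genes of the group were 2-fold lower, and 1.5-fold lower were 1 gene of the group, 1 of all selenoprotein genes and 0 thioredoxin partners. A larger pseudocount pulls low values together by construction. With the leading isoform alone, the machinery list had 2 genes 1.5-fold higher (SARS and SECISBP2), the degradation list 1 lower (UBXN8), and TXNRD1 a log2 ratio of 0.27, while PRDX3 took the place of RRM2B as the 1 thioredoxin partner 1.5-fold lower; the cause was not tested. Centring on genes of like GC content, also added later, left 1 gene of the group (SEPP1), 1 of all selenoprotein genes and 0 thioredoxin partners 1.5-fold lower. Over these alternatives the SEPP1 log2 ratio ran from -1.44 to -0.88 and that of SELK from -0.66 to -0.56. No single gene of the 8 changed sign; the median of the group did so with no filter on low values (0.08). No paired analysis was possible because each group has 1 library. Leaving out a library is not possible either. Depth limits GPX2 and GPX3, at about 12 fragments or fewer in each library.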
